A study of Homo sapiens with 4 samples.

Results

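TNF-alpha was followed in the conditioned medium of U937, an established human leukaemia line that resembles monocytes, as 1 row of a protein array. It is 1 of 21 distinct protein rows on that array, and was taken up for its place in NF-kB signalling, both as a product of NF-kB and as a signal that switches NF-kB on. A single array was made for each of 4 media. Cells transduced with an empty retroviral vector were given PBS in the first and cytarabine in the second. Cells transduced with F1F2 or with F2F3, dominant negative fragments of the adaptor protein TIFA, were given cytarabine in the third and in the fourth. Cytarabine, which stops DNA synthesis as an analogue of cytidine and is a mainstay of leukaemia treatment, was used at 10 µM for 72 h on equal numbers of cells. The duration of the PBS culture is not given in the sources used here. All cells had been selected for stable expression of their construct, and whether these are clones or mixed populations is not given in the sources used here. No medium of F1F2 or F2F3 cells lacking the drug was analysed here, so a difference between them and vector cells cannot be told apart from one that exists without the drug. The series' title ties TIFA to survival signalling through NF-kB in acute myeloid leukaemia, and TNF-alpha in the medium bears on the secreted side of that question.

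TNF-alpha is made mainly by monocytes and macrophages as a protein of the cell membrane, and a protease releases its outer part into the medium. The released trimer binds TNF receptors on the same or neighbouring cells, which activate NF-kB, and NF-kB in turn drives transcription of TNF and of many other cytokine and chemokine genes. TIFA is an adaptor that oligomerises and engages TRAF proteins upstream of NF-kB.

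TNF lies on chromosome 6 at chr6:31575565-31578336 (GRCh38.p14, RefSeq), next to LTA, the gene of the related cytokine TNF-beta, at chr6:31560610-31574324. The 250 bases before the annotated start of TNF, of CXCL1 (the gene of GRO-alpha) and of IL6 are shown. All are on the plus strand of GRCh38.p14 and taken from RefSeq. These NF-kB targets encode the protein in question, a chemokine that was also lower with both fragments, and a protein that was higher with both. Lower and higher are here against vector medium with cytarabine. There GRO-alpha read only 0.0608, and the brighter row GRO, at 0.689, covers CXCL2 and CXCL3 as well. Capitals mark matches on either strand to GGGNNNNNCC, a loose form of the NF-kB site, and matches that overlap run together. TNF is at chr6:31575315-31575564, CXCL1 at chr4:73869143-73869392 and IL6 at chr7:22726950-22727199.
TNF: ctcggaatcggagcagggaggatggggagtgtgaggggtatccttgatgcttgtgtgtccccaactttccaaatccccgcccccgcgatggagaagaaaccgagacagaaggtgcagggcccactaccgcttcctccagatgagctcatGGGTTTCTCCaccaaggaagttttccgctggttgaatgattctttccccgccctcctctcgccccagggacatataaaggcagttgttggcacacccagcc
CXCL1: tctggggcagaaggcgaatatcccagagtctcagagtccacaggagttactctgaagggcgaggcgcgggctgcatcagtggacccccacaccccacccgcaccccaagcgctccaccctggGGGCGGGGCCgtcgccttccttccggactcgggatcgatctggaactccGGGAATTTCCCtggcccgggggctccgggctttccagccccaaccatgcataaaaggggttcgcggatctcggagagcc
IL6: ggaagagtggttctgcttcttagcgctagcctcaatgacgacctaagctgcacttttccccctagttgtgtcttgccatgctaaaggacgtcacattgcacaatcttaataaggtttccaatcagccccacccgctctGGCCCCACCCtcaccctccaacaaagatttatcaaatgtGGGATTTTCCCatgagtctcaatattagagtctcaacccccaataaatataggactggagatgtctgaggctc

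The TNF window held 1 match, GGGTTTCTCC, whose first base lies 101 bases before the start. CXCL1 and IL6 held 3 matches each, of which 2 overlap in either window. The motif is common, with at least 1 match in 54.4% of 35116 windows of this length, and a match is a description of the letters only.

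The TNF-alpha intensity, relative to the positive control spot set at 1 and the negative control set at 0, was 0.467 in vector medium with PBS. It was 0.871 in vector medium with cytarabine, 0.137 in F1F2 medium with cytarabine and 0.0824 in F2F3 medium with cytarabine. The order was thus vector with cytarabine, vector with PBS, F1F2 and F2F3, from the highest to the lowest. Each value is a single array (n = 1), so there is no spread between replicates to set a difference against, no test was possible, and no neighbours in this order can be said to differ beyond their error. The only gauge of small differences is the 8 dim proteins, those under 0.05 in all samples, which varied between the samples by 0.0339 at most. TNF-alpha in F2F3 medium, its lowest value, was 2.43 times that range, and in F1F2 medium 4.04 times. This gauge is capped by the choice of proteins under 0.05, so it may understate the error. GRO-alpha (CXCL1), left out because it reached 0.0608 in vector medium with cytarabine, read -0.00458 with F1F2. Cell number and viability at collection did not enter the intensities, so fewer releasing cells and less release per cell cannot be told apart.

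**Figure D1:**
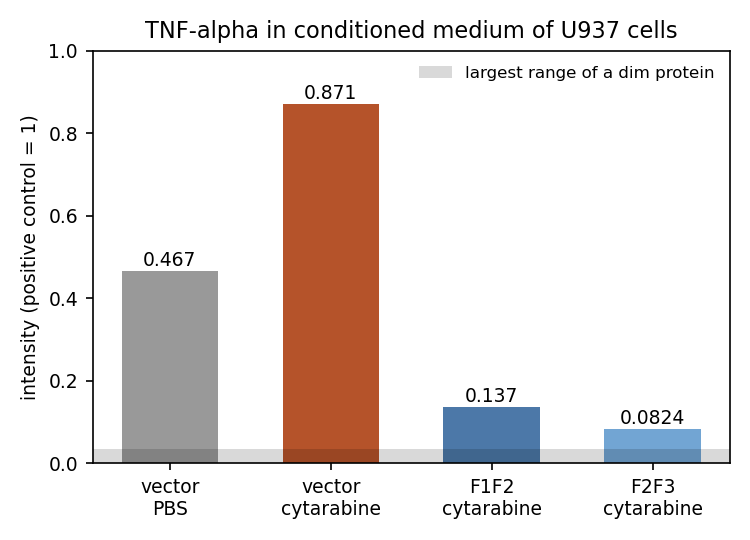
TNF-alpha intensity on the y axis (linear, positive control = 1) in the medium of each of the 4 samples, 1 array each and therefore without error bars. The grey band reaches to 0.0339, the largest range of a dim protein over the samples; the bars stand at 0.467, 0.871, 0.137 and 0.0824, all above it.

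TNF-alpha had the widest swing of the bright proteins but for IL-5. Bright here means an intensity of 0.1 or more in at least 1 sample, which 9 proteins reached. Its highest value was 10.6 times its lowest. IL-5, an eosinophil growth factor, spanned 10.9-fold, but from 0.0123, close to the array's floor, to 0.134. IL-6 followed with 3.41-fold and GRO with 2.46-fold, and the other 5 bright proteins (MCP-2, IL-8, RANTES, MCP-1 and IL-10) spanned from 1.25-fold to 1.48-fold. In absolute terms TNF-alpha ranged over 0.788, less than IL-6 at 1.04 and more than GRO at 0.409.

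Its place among the 21 proteins of each array moved accordingly. Antibodies differ in strength, so the place of a protein says nothing of its amount. Its movement between arrays compares the same antibodies, but it also depends on how the other proteins moved. IL-6 read 1.23 with PBS and 0.431 in vector medium with cytarabine. IL-5 read 0.0741 with PBS, below TNF-alpha, and 0.110 with F2F3, above it. TNF-alpha was the brightest protein in vector medium with cytarabine, the fifth in vector medium with PBS, the seventh with F1F2 and the ninth with F2F3. It made up 11.0% of the summed intensity with PBS, 20.0% with cytarabine, 3.50% with F1F2 and 2.25% with F2F3. The sums without TNF-alpha were 3.78 with PBS, 3.48 with cytarabine, 3.78 with F1F2 and 3.59 with F2F3. IL-6 ran the opposite way to TNF-alpha except between the fragments, where both were higher with F1F2. Without both proteins the sums were 2.55, 3.05, 2.31 and 2.29 in the same order.

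The first comparison asked how cytarabine changed TNF-alpha in the medium of vector cells. TNF-alpha was 1.87-fold higher with the drug, past the 1.5-fold used here to call a protein higher or lower. At that threshold 3 of the 17 proteins with a ratio, or 17.6%, were higher, so the call on its own sets TNF-alpha little apart. The others were GRO-alpha (CXCL1), with 0.0608 against 0.00224, and IL-3, with 0.0328 against 0.0193, neither of them bright. Another 4 of the 17 (23.5%) were lower by as much. Of the 8 proteins that were bright in either vector medium, TNF-alpha had the highest ratio.

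A factor shared by all spots of an array drops out when TNF-alpha is set against another protein of the same arrays. The 7 other proteins at or above 0.1 in every sample served for this. Relative to them TNF-alpha was higher with cytarabine in 7 of 7 cases, which follows from its highest ratio among the bright proteins. The size ran from 1.45-fold against RANTES (CCL5), a chemokine for T cells and monocytes, to 5.30-fold against IL-6. Relative to the median ratio of the 7 proteins TNF-alpha was 1.56-fold higher. Of the reference proteins, IL-6 was the only one with a lower intensity under cytarabine, at 0.431 against 1.23 with PBS.

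The next comparisons set cells with either TIFA fragment beside vector cells, all with cytarabine. They share the vector sample, so they are not independent of each other. F1F2 medium held 6.35-fold less TNF-alpha signal than vector medium and F2F3 medium 10.6-fold less, and in both cases it had the lowest ratio of the 18 proteins with one. At 1.5-fold, 3 of the 18 proteins (16.7%) were lower with F1F2, and again 3 of 18 (16.7%) with F2F3. Over the alternative settings (scaling of the arrays, a pseudocount of 0.05, and the lower value moved by the largest dim range) the F2F3 fold lay between 6.95 and 17.9. The others in both were GRO and GRO-alpha, which overlap, since GRO names the CXCL1, CXCL2 and CXCL3 family and GRO-alpha is CXCL1. GRO-alpha came close to TNF-alpha with F1F2, where it read -0.00458 against 0.0608 in vector medium, at least 6.14-fold lower. Its fold there is a lower bound set by the floor of 0.0099, so which of the pair had the lower ratio with F1F2 is not known. In the deposited values the calls split into 4 higher and 3 lower for F1F2, and into 6 higher and 3 lower for F2F3. With arrays scaled to the same median there were 4 higher and 10 lower for either fragment. That median is a single low value on each array. It was IL-7 at 0.0347 with PBS, IFN-gamma at 0.0328 with cytarabine, IFN-gamma at 0.0474 with F1F2 and IL-7 at 0.0523 with F2F3. These medians differ by less than the largest dim range of 0.0339, so counts under this scaling rest on differences no larger than that gauge.

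Set against the same 7 reference proteins, TNF-alpha was lower in 7 of 7 cases with each fragment. This follows from its lowest ratio among the bright proteins, so only the sizes add to it. With F1F2 it was 2.73-fold lower relative to GRO, 4.47-fold relative to IL-8 (CXCL8), which attracts neutrophils, 5.70-fold relative to MCP-1 (CCL2), which attracts monocytes, and 21.6-fold relative to IL-6. With F2F3 the values were 4.29-fold for GRO, 7.11-fold for IL-8, 8.16-fold for MCP-1 and 31.6-fold for IL-6. Against the median ratio of the 7 proteins the shortfall was 5.08-fold for F1F2 and 8.16-fold for F2F3. These values do not depend on a factor shared by all spots of an array. A shift of the zero level would move them, and none was tried on them. They also rest on signals being linear up to the brightest spots, which is not known.

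**Figure D2:**
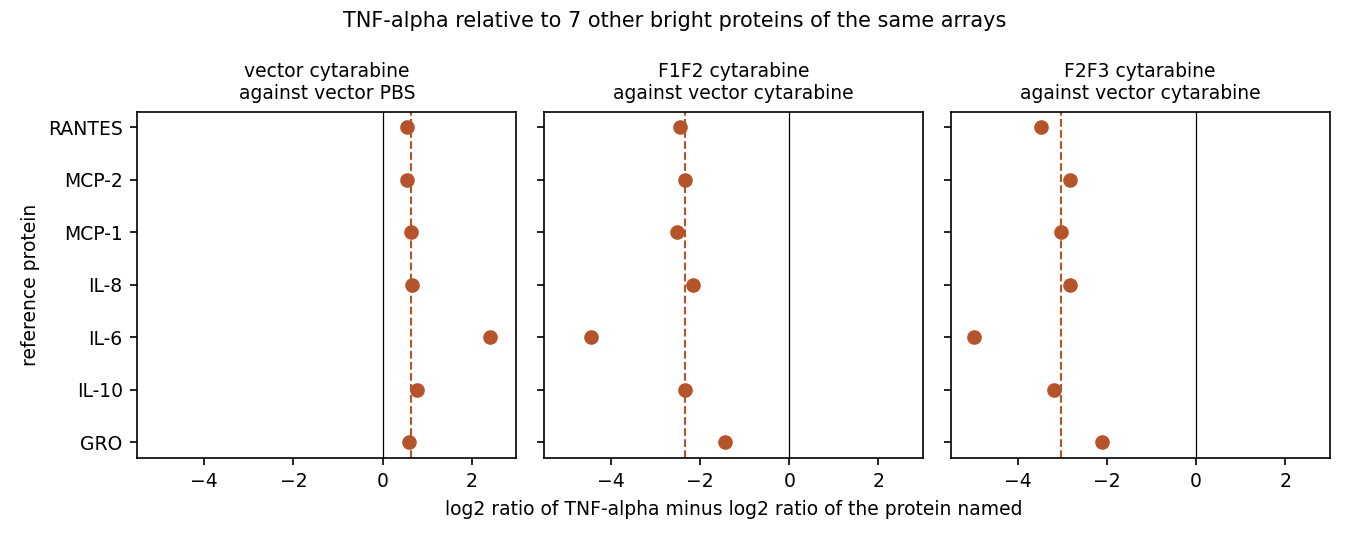
Log2 ratio of TNF-alpha between 2 samples minus the log2 ratio of each of 7 reference proteins between the same samples (x axis, log2 units), for the 3 comparisons named above the panels. Dashed lines mark the value against the median reference ratio, 0.64, -2.35 and -3.03 from left to right; all 7 points lie right of 0 in the first panel and left of it in the others.

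TNF-alpha in the fragment media was also under the level of vector cells that had received no drug. Against vector medium with PBS it was 3.40-fold lower with F1F2, where 3 of 16 proteins (18.8%) were lower by 1.5-fold or more. The others were GRO, with 0.296 against 0.557, and the dim IL-1-beta, with -0.00153 against 0.0174. With F2F3 it was 5.66-fold lower, and between 3.90-fold and 9.62-fold lower over the alternative settings. There, 2 of 17 proteins (11.8%) were lower by 1.5-fold or more, the second being GRO at 0.280. Against the median ratio of the 7 reference proteins the shortfall was 3.42-fold for F1F2 and 5.25-fold for F2F3. The closest reference protein was GRO in both, at 1.81-fold and 2.84-fold. These comparisons do not use the vector array with cytarabine, but they differ in both the drug and the construct.

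The fragments themselves differed 1.66-fold in TNF-alpha, the higher value being that of F1F2. TNF-alpha was the only protein of 17 (5.88%) to be higher by 1.5-fold in that direction. It was therefore also higher relative to 8 of 8 reference proteins, IL-5 now included, by 1.37-fold to 2.02-fold. The intensities differed by 0.0547, against a largest dim range of 0.0339. Adding that range to the F2F3 value lowers the log2 ratio from 0.73 to 0.24, under the threshold, so no order between the fragments is drawn from it.

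Likeness to TNF-alpha was measured by how many of the 6 pairwise orders of the 4 samples a bright protein shared with it. GRO and IL-8, ligands of the receptor CXCR2, shared 6 of 6. One of these orders is that of F1F2 above F2F3, which was not firm for TNF-alpha. It was not firm for GRO (0.296 against 0.280) or IL-8 (0.477 against 0.456) either, as both differed by less than the largest dim range of 0.0339. The same holds for IL-10 between any samples next to each other in its order. Without it, GRO, IL-8 and IL-10 shared 5 of 5, and with it turned IL-10 shared 6 and GRO and IL-8 shared 5. The orders thus do not single out 1 protein. By size GRO was the closest of the bright proteins, with a mean absolute difference of 0.98 from TNF-alpha in log2 ratio to PBS, over the other 3 samples. IL-8 differed by 1.44, because its intensities of 0.574, 0.677, 0.477 and 0.456 (PBS, cytarabine, F1F2 and F2F3) kept the order of TNF-alpha within a 1.48-fold span. MCP-2, IL-10 and MCP-1 shared 5 orders and RANTES 2. IL-6 and IL-5 shared 1 each, and were the most unlike. This ranking depends on the scaling: scaling to an equal total left GRO and IL-8 with 5 shared orders each, and scaling to an equal median gave 5 proteins with 6. The medians used for the latter are low values that differ by less than the largest dim range. TNF-alpha itself kept its order under both.

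**Figure D3:**
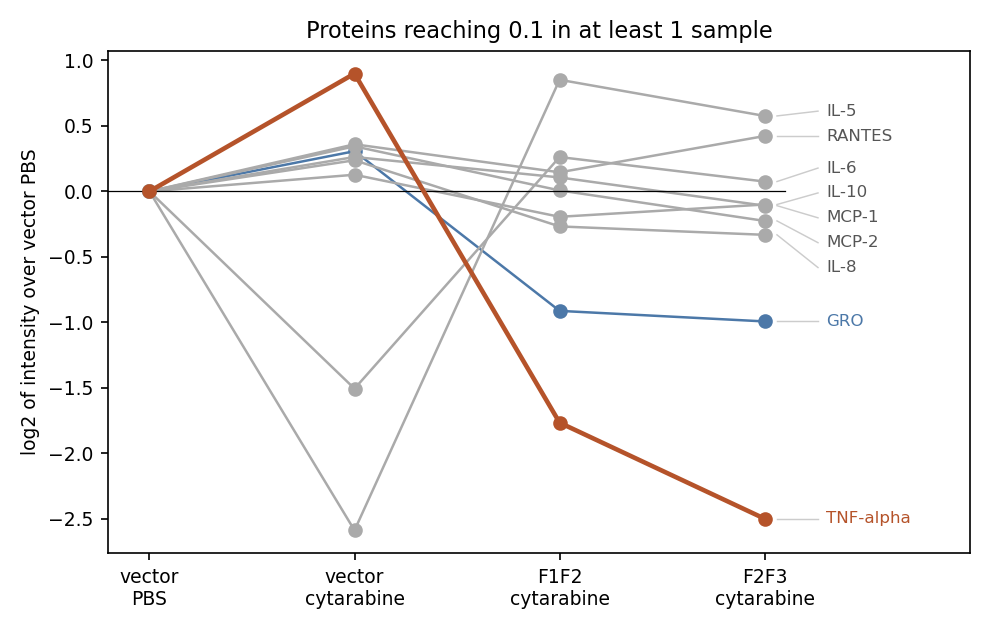
Log2 of the intensity over that of vector medium with PBS (y axis) for the 9 bright proteins in the 4 media (x axis), 1 array each; lines only join the values of 1 protein. TNF-alpha (orange) stands highest with cytarabine in vector cells at 0.90 and lowest with both fragments at -1.77 and -2.50, and GRO (blue) is next lowest there at -0.91 and -0.99.

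Of the 9 NF-kB targets on the array other than TNF-alpha, 8 had a ratio in each comparison with vector medium under cytarabine, and G-CSF was under the floor. With cytarabine against PBS in vector cells, 1 was higher (GRO-alpha), 2 were lower (IL-6 and the dim IL-1-beta, which read 0.00993 against 0.0174) and 5 did not pass. Over all 17 proteins with a ratio the shares were 17.6% higher and 23.5% lower, close to those of the targets. The targets' median log2 ratio was 0.28, beside 0.26 over all proteins with a ratio and 0.90 for TNF-alpha. Under either fragment the split was 1 higher, which was IL-6, 2 lower, which were GRO and GRO-alpha, and 5 between the thresholds. The shares over all 18 proteins, which include the targets and TNF-alpha, were 22.2% (higher) and 16.7% (lower) for F1F2, and 33.3% and 16.7% for F2F3. Apart from GRO and GRO-alpha, only TNF-alpha was called lower, so no protein outside NF-kB targets was. The higher calls outside the targets were IL-5, IL-7 and MCP-3 with either fragment, and also IFN-gamma and MIG with F2F3. These counts are small and the lists were chosen with earlier results known, so whether targets differ from other proteins was not tested. With arrays scaled to the same median, 6 of the 8 targets were lower with either fragment, beside 10 of all 18. That scaling rests on low values that differ by less than the largest dim range, as described above. The median was -0.28 with F1F2, beside -0.19 over all proteins and -2.67 for TNF-alpha. It was -0.35 with F2F3, beside -0.08 over all proteins and -3.40 for TNF-alpha. IL-6, an acute phase cytokine that is a textbook target of the same factor, went the opposite way to TNF-alpha in these 3 comparisons, with 1.47 in F1F2 medium and 1.29 in F2F3 medium; all 3 use its single value of 0.431 in vector medium with cytarabine.

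Among proteins known to restrain TNF-alpha release, IL-10 read 0.210 with PBS, 0.230 with cytarabine, 0.184 with F1F2 and 0.196 with F2F3. Its highest value was in the medium with most TNF-alpha, but IL-10 spanned only 1.25-fold and passed 1.5-fold in no comparison. A part of IL-10 in the TNF-alpha values was not tested. IL-13 was under the floor in all samples. The only relative of TNF-alpha on the array, TNF-beta, has a row whose values are identical to those of TGF-beta in every sample (0.00764, 0.0198, 0.0158 and 0.0143), and it is not known to which of the proteins they belong. Of the myeloid products listed to check the label, IL-8 and MCP-1 were bright in all media and IL-1-beta was dim in all. The summed intensity of 4 lymphocyte cytokines (IL-2, IL-5, IL-13 and IFN-gamma) ran from 0.0560 in vector medium with cytarabine to 0.178 in F2F3 medium, with 1 or 2 of them under the floor. It was thus highest where TNF-alpha was lowest, most of it from IL-5 with either fragment, and its part in the result was not tested.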

How the data were processed

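Biotin-labelled protein from the media was read on a protein array, per the labels. The authors deposited intensities for 23 protein rows in 4 samples. They are linear, with each array's negative control at 0, its positive control at 1 and 13 of 92 protein values negative. The sources used here name no array, scanner or software. An array has no read depth, and 1 array per group limits the precision. TNF-alpha and all lists were chosen with earlier results of these data known. The identical rows TGF-beta and TNF-beta were left out, leaving 21 proteins. Log2 ratios were taken between samples for 6 pairs; a floor of 0.0099, the 25th percentile over the protein rows, replaced lower values, and proteins with both values under it got no ratio. Proteins past 1.5-fold were called. Where the design text gives F1F2 for a second time, the last sample's own title, F2F3, was followed. The proteins named as like TNF-alpha were to be bright ones sharing most sample orders, at most 3; others were named from a list or for a ratio next to it. The arithmetic was tested on simulated data. Sequences are from RefSeq. Alternatives were scaling between arrays, a pseudocount, a shifted zero level, the thresholds and the reference proteins; the order of the fragments and the scaling of the NF-kB target counts were chosen after the data had been seen. The software was Python 3.11.15, pandas 2.3.3, NumPy 2.4.6 and matplotlib 3.10.9.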

Additional observations from a re-analysis of the deposited data

How the results depend on the processing

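No paired analysis was possible because each group is 1 array. The ratios of TNF-alpha kept their direction in all 42 alternatives and their side of the threshold in 38. Part of the count on direction was fixed in advance. The 2-fold threshold, the pseudocount and the largest dim range taken from the lower value cannot turn a direction. With a 2-fold threshold, cytarabine against PBS (log2 0.90) and F1F2 against F2F3 (0.73) were no longer called. The latter was also lost with a pseudocount of 0.05 (0.50) and with the largest dim range added to the lower value (0.24). The log2 ratio to vector medium with cytarabine ranged from -3.20 to -2.30 for F1F2 and from -4.17 to -2.80 for F2F3, and that of cytarabine against PBS from 0.80 to 1.02. Against PBS it ranged from -2.22 to -1.45 for F1F2 and from -3.27 to -1.96 for F2F3, and between the fragments from 0.24 to 1.5. Relative to the reference proteins, 23 of 24 alternatives kept the call, and F1F2 against F2F3 fell to 0.55 with reference proteins from 0.2. Leaving out GRO and IL-6 returned the same value in every comparison but F1F2 against F2F3, so that setting challenged the call little. Counts of proteins called in the direction of TNF-alpha moved more. With arrays scaled to the same median, 10 proteins were lower with either fragment than in vector medium with cytarabine, in place of 3. Against PBS, 5 were then lower with F1F2 and 7 with F2F3, in place of 3 and 2. The medians used for this scaling are low values that differ by less than the largest dim range, so these shifts may be array error. At 2-fold, 1 protein was called in each of cytarabine, F1F2 and F2F3 against PBS, and 0 between the fragments. Among bright proteins only, 1 was higher with cytarabine. All 6 sample orders of TNF-alpha were shared by 2 proteins as deposited, 5 at the same median, 0 at the same total and 1 with the order of F1F2 and F2F3 turned, an alternative added after seeing the data. The size of the array error is unknown.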
